A study of Triticum aestivum with 6 samples.

Results

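The genes described here encode 3 regulators of storage protein synthesis in wheat endosperm, the bZIP storage protein activator SPA, the DOF prolamin-box binding factor PBF and the endosperm factor NAC019. Bread wheat carries an A, a B and a D copy (homoeolog) of each, so the set holds 9 genes of the 127196 listed, taken by their identifiers. The identifiers are TraesCS1A01G329900, TraesCS1B01G343500 and TraesCS1D01G332200 for SPA-A, SPA-B and SPA-D, TraesCS5A01G155900, TraesCS5B01G154100 and TraesCS5D01G161000 for the PBF copies, and TraesCS3A01G077900, TraesCS3B01G092800 and TraesCS3D01G078500 for the NAC019 copies. Each was compared between the innermost endosperm region (IE, the central lobe zones of the middle grain section) and the remaining endosperm region (RE) of field-grown wheat of the cultivar Zhoumai36, sampled 25 days after anthesis. RNA was sequenced from 3 IE and 3 RE libraries. The nitrogen level is not in the labels, which name only region and replicate, so no fertilizer treatment was assigned, and other libraries of the study were not analysed here. The RE tissue holds the aleurone as well as starchy endosperm, and in such bulk tissue fewer cells of a type and less RNA per cell cannot be told apart. Aleurone and seed coat markers were not analysed here, since no table at hand pairs their names with these identifiers.

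Gluten proteins accumulate in starchy endosperm during grain filling, and their genes are controlled largely at transcription. SPA is a leucine zipper protein of the Opaque2 group, known from maize, and activates glutenin genes through a motif of the endosperm box in their promoters. PBF is a zinc finger protein that binds the neighbouring prolamin box, and NAC019 is an endosperm NAC protein of wheat that binds promoters of glutenin genes and takes part in starch accumulation.

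The library totals behind the FPKM values (fragments scaled by transcript length and library total, the deposited unit) lay between 13959933 and 21766392 fragments. Fragments on the listed genes made up 98.2% to 98.6% of them. At these totals, 3 fragments on 1 kb of transcript amount to 0.138 to 0.215 FPKM. The libraries did not group by region alone. Across the log2 values of 51830 genes, which are not independent replicates, IE replicate 2 had a correlation of 0.915 with RE replicate 2 and 0.910 with RE replicate 3, but 0.897 with IE replicate 1 and 0.860 with IE replicate 3. IE replicate 3, the library with the fewest fragments, had 0.912 with IE replicate 1 and 0.842 to 0.867 with the RE libraries. IE replicate 1 had its highest correlation with RE replicate 2 (0.924). The 100 most abundant genes took 60.2%, 52.5% and 62.8% of the summed FPKM in IE replicates 1, 2 and 3, and 56.2%, 55.9% and 53.1% in RE replicates 1, 2 and 3. Because of this, results are also given without IE replicate 2 and, in places, without IE replicate 3 or another library. The gliadin gene TraesCSU01G153800, a starchy endosperm gene, was above 21 FPKM in every library.

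All 9 genes were detected in all 6 libraries, at levels that differed widely between copies. By their mean over the 6 libraries, the order was NAC019-B (76.3 FPKM), PBF-D (42.2), PBF-A (29.7), PBF-B (23.1), SPA-A (17.7), NAC019-A (13.1), SPA-B (3.12), SPA-D (1.34) and NAC019-D (0.701). Of the 8 pairs of neighbours in this order, 6 kept it in every library. PBF-B was above SPA-A in 5 of 6 libraries, and SPA-D above NAC019-D in 5 of 6. NAC019-B ranked between the 96.5th and the 98.8th percentile of the genes tested in each library, and the PBF copies between the 89.8th and the 97.5th. NAC019-D reached the 33.3rd percentile at most. All 9 genes had a mean of at least 0.5 FPKM and entered the test.

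**Figure D1:**
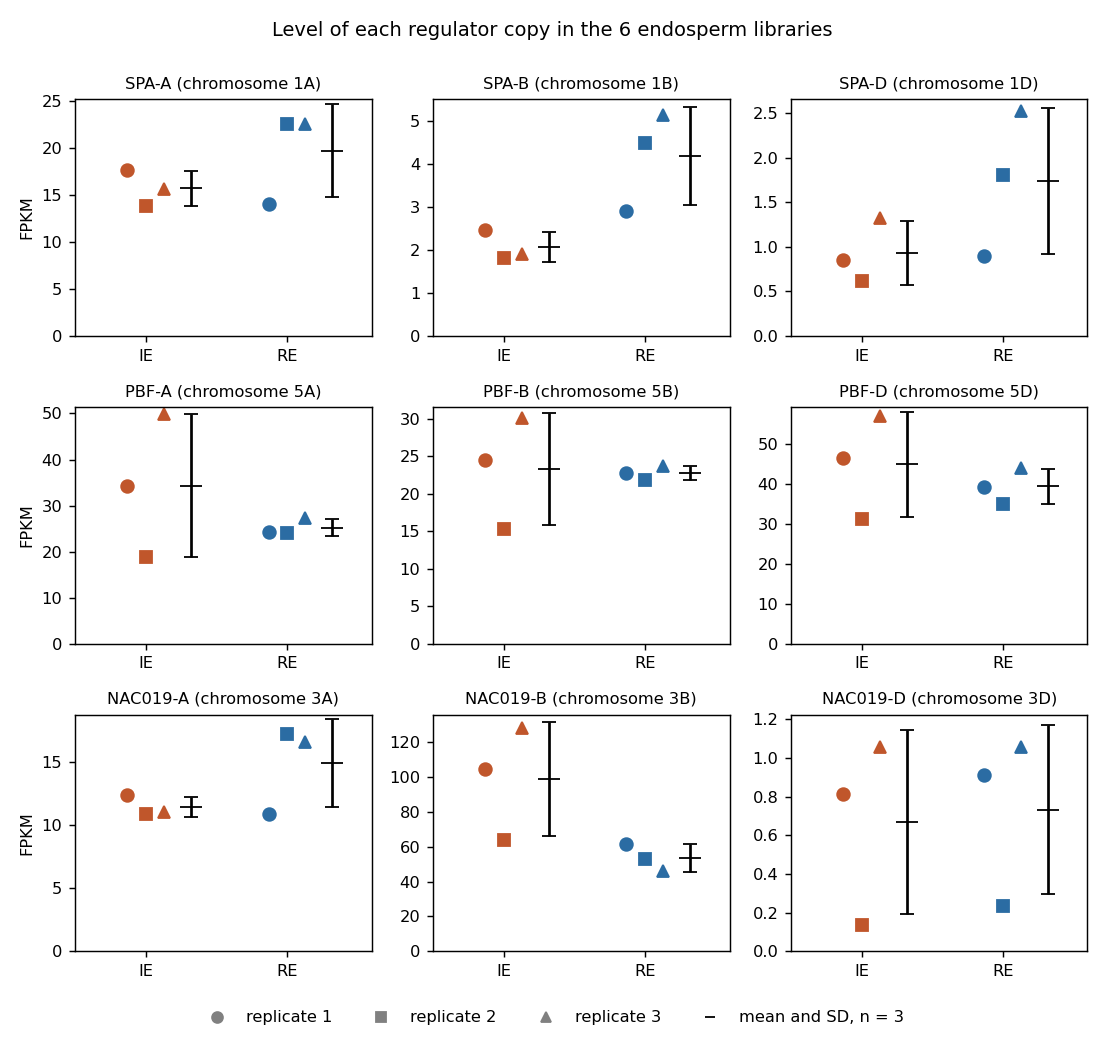
FPKM of each of the 9 genes in the 3 IE and 3 RE libraries, with 1 panel per gene, symbols for the replicate and the mean and SD beside each group. Each panel has its own scale from 0. Every IE library lies above every RE library only for NAC019-B, and below only for SPA-B.

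No copy passed the thresholds for a differentially expressed gene (DEG), set at 0.05 for the adjusted p of the limma fit over all genes and at 1 for the size of the log2 fold change. Of the 51830 genes tested, 0 were called (0%), and the smallest adjusted p was 0.359. With an unadjusted p of at most 0.05 alone, 5203 genes (10.0%) passed, and 2 of the 9 regulator genes did. With a 2-fold change as well, 2980 genes (5.75%) passed and 0 of the 9. That count of regulators was 1 with TPM scaling (SPA-B, beside 5.85% of all genes). It was also 1 without IE replicate 1 (SPA-B, 6.18%) or IE replicate 2 (NAC019-B, 10.1%), and 2 without RE replicate 1 (SPA-B and SPA-D, 4.82%). Without IE replicate 2, 5161 genes (10.1%) passed with the 2-fold change and 9232 (18.1%) without it, and without RE replicate 3 the latter count was 2831 (5.49%). The same 2 genes, SPA-B and NAC019-B, were those with no overlap between the regions. Over all genes, 16.3% showed no overlap, 4.35% with every IE library above and 11.9% with every IE library below. With median-ratio scaling these shares were 15.5%, 6.83% and 8.64%. Log2 fold changes are of IE relative to RE on the log2(FPKM + 0.1) scale, and their median was -0.22 over the 9 genes and -0.12 over all genes tested. Dividing each library by its median ratio to the geometric mean of the libraries (median-ratio scaling) moved the latter to 0.0051, a shift of 0.12, so single log2 fold changes should be read against -0.12. Both scalings called 0 genes, while the split at an unadjusted p with a 2-fold change was 850 higher and 2130 lower in IE as deposited (1.64% and 4.11%), and 1318 and 1873 with median ratios.

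All 3 SPA copies had lower mean levels in IE than in RE, and the groups were apart only for the B copy. A negative log2 fold change was common, with 31856 of the 51830 genes tested as deposited and 25486 of 51539 with median-ratio scaling. With that scaling the values were -0.17 for SPA-A, -0.84 for SPA-B and -0.66 for SPA-D. SPA-A, the most abundant SPA copy, had 17.6, 13.9 and 15.6 FPKM in the replicates 1 to 3 of IE, and 14.0, 22.5 and 22.6 FPKM in those of RE. RE replicates 2 and 3 were above all IE libraries, while RE replicate 1 lay among them. The IE mean was 15.7 ± 1.89 FPKM and the RE mean 19.7 ± 4.92 FPKM (SD, n = 3 each), a log2 fold change of -0.30 (standard error 0.25, 95% interval -0.87 to 0.27, limma adjusted p = 0.722).

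SPA-B was at 2.46, 1.82 and 1.91 FPKM in the IE libraries and at 2.92, 4.50 and 5.14 FPKM in the RE replicates, from 43 to 65 fragments per IE library and from 84 to 174 per RE library. Every IE library was below every RE library, and this held with median-ratio scaling. The mean was 2.06 ± 0.349 FPKM in IE against 4.19 ± 1.14 FPKM in RE (SD, n = 3 each). The log2 fold change of -0.96 (standard error 0.27, 95% interval -1.60 to -0.33), or 0.514 times the RE level, had an unadjusted p of 0.00836 and a limma adjusted p of 0.363. With 1 library left out at a time it stayed between -1.20 and -0.80.

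SPA-D was expressed at 0.856, 0.613 and 1.32 FPKM in IE and at 0.892, 1.81 and 2.52 FPKM in RE, from 21 to 83 fragments per library. RE replicate 1 again fell within the IE range, and it held the lowest RE value of all 3 SPA copies. The log2 fold change of SPA-D was -0.79 (standard error 0.43, 95% interval -1.79 to 0.22, limma adjusted p = 0.584). Without RE replicate 1, the values became -0.53 for SPA-A, -1.20 for SPA-B and -1.18 for SPA-D, and without RE replicate 3 they became -0.19, -0.80 and -0.48. No gene passed the adjusted p in either case. The order of the fold changes was not fixed, as without IE replicate 3 SPA-D (-1.05) was past SPA-B (-0.91).

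The PBF copies did not separate the regions, and their IE libraries were spread more widely than their RE libraries. PBF-A, which encodes a DOF factor like the other PBF copies, was at 34.3, 18.7 and 49.9 FPKM in the IE libraries and at 24.2, 24.0 and 27.3 FPKM in the RE libraries. PBF-B was at 24.6, 15.3 and 30.1 FPKM in IE and at 22.8, 21.9 and 23.7 FPKM in RE. PBF-D, the most abundant of the 3, was at 46.4, 31.2 and 57.2 FPKM in IE and at 39.3, 35.1 and 43.9 FPKM in RE. For each of these genes, IE replicate 2 had the lowest and IE replicate 3 the highest value of the 6 libraries, with all RE libraries in between. IE replicates 2 and 3 were also the libraries with the lowest and the highest share of the 100 most abundant genes (52.5% and 62.8%). Within RE the order differed, as RE replicate 3 had the lowest share (53.1%) and the highest RE value of each PBF copy. The part of this share in the PBF levels was not tested.

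The log2 fold changes were 0.34 for PBF-A (standard error 0.34, 95% interval -0.46 to 1.13, limma adjusted p = 0.781), -0.02 for PBF-B (standard error 0.27, 95% interval -0.65 to 0.60, limma adjusted p = 0.986) and 0.15 for PBF-D (standard error 0.26, 95% interval -0.46 to 0.76, limma adjusted p = 0.881). The intervals leave room for a difference in either direction. Without IE replicate 2 they were 0.72, 0.25 and 0.39, and without IE replicate 3 they were 0.013, -0.23 and -0.046, so the direction of PBF-B and PBF-D depended on a single library. The direction of PBF-B also turned with median-ratio scaling (0.10).

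NAC019-B, the most abundant of the 9 genes, had 105, 63.9 and 128 FPKM in the replicates 1 to 3 of IE, and 61.8, 53.0 and 46.1 FPKM in those of RE, from 619 to 1150 fragments per library. The RE libraries were all lower than the IE libraries, but IE replicate 2 was close to RE replicate 1. With median-ratio scaling these libraries changed places (59.0 in IE replicate 2 against 62.2 in RE replicate 1), so that the groups overlapped. The IE mean was 99.1 ± 32.6 FPKM and the RE mean 53.6 ± 7.87 FPKM (SD, n = 3 each). The log2 fold change was 0.84 (standard error 0.29, 95% interval 0.16 to 1.51), or 1.79 times the RE level, with an unadjusted p of 0.0216 and a limma adjusted p of 0.418. Without IE replicate 2 it was 1.12 (limma adjusted p = 0.0607), and without IE replicate 3 it was 0.62 (limma adjusted p = 0.704). The unadjusted limma p no longer reached 0.05 without IE replicate 1 (0.0677), IE replicate 3 (0.0681), RE replicate 2 (0.0575) or RE replicate 3 (0.0795). As for PBF, IE replicate 3 held the highest value and IE replicate 2 the lowest of the IE libraries. Within each region, NAC019-B followed the order of the share of the 100 most abundant genes. This share was 60.2%, 52.5% and 62.8% in IE replicates 1 to 3, and 56.2%, 55.9% and 53.1% in those of RE. The part of this in the NAC019-B level was not tested.

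NAC019-A did not share this pattern. It was at 12.3, 10.9 and 11.0 FPKM in IE and at 10.9, 17.2 and 16.6 FPKM in RE, with RE replicates 2 and 3 above the rest and RE replicate 1 at the IE level. Its log2 fold change was -0.35 (standard error 0.23, 95% interval -0.89 to 0.19, limma adjusted p = 0.651). NAC019-D was close to the limit of detection, at 0.813, 0.136 and 1.06 FPKM in IE and at 0.911, 0.233 and 1.06 FPKM in RE. These values rest on 9, 2 and 10 fragments in IE and on 11, 3 and 15 fragments in RE, so a difference between the regions was not detectable at this depth (log2 fold change -0.22, standard error 0.75, limma adjusted p = 0.945).

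**Figure D2:**
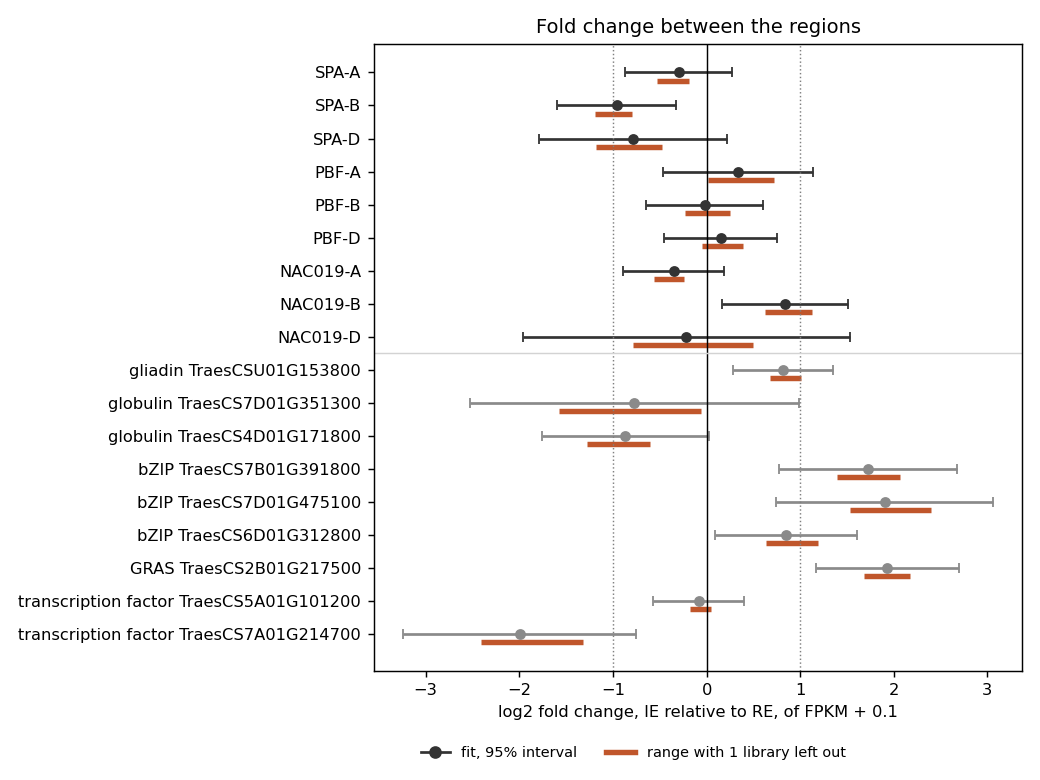
Log2 fold change of IE relative to RE on the log2(FPKM + 0.1) scale for the 9 regulator genes (upper block) and 9 other genes named by the study (lower block), with 95% intervals as thin bars and the range over fits without 1 library as thick bars. Dotted lines mark a log2 fold change of 1 in size. Among the regulators, the intervals of SPA-B and NAC019-B exclude 0 before adjustment.

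The copies of a triad have similar sequences, and the tool that assigned reads to genes is not given in the sources used here, so reads that match more than 1 copy could have been divided between them. Sums over the copies are therefore given as well. The SPA sum was 20.9, 16.3 and 18.8 FPKM in IE and 17.8, 28.8 and 30.2 FPKM in RE, a log2 fold change of -0.42 with overlapping groups (two-sided exact permutation test, p = 0.3). The PBF sum was 105, 65.2 and 137 FPKM in IE and 86.3, 81.0 and 94.9 FPKM in RE, a log2 fold change of 0.17 (two-sided exact permutation test, p = 0.7). The RE libraries again lay inside the IE range. The NAC019 sum was 118, 74.9 and 140.4 FPKM in IE and 73.5, 70.4 and 63.7 FPKM in RE, a log2 fold change of 0.64. Every IE library was above every RE library, by a small step between IE replicate 2 and RE replicate 1 (p = 0.1 by the same two-sided exact permutation test, which with 3 libraries a group can give no smaller value). The groups overlapped with median-ratio scaling, with a log2 fold change of 0.76. Without IE replicate 2, the log2 fold changes of the sums were -0.33 for SPA, 0.46 for PBF and 0.90 for NAC019. Without IE replicate 3, they were -0.43, -0.074 and 0.45.

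**Figure D3:**
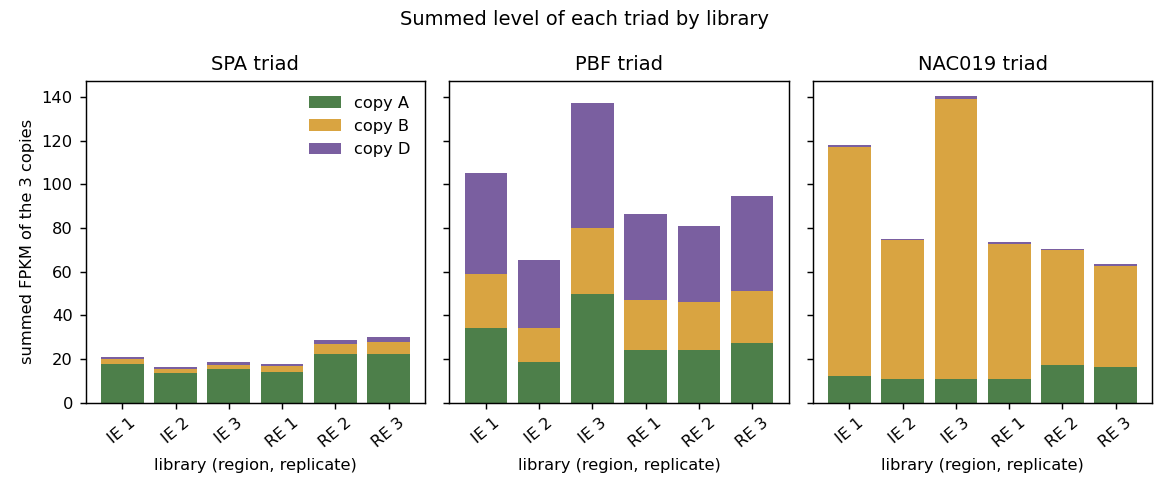
Summed FPKM of the A, B and D copies of SPA, PBF and NAC019 in each of the 6 libraries, stacked by copy on a common scale from 0. The SPA sums stay between 16.3 and 30.2 FPKM, and the NAC019 sums, mostly of the B copy, are highest in IE replicates 1 and 3.

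Ratios between the regulators within a library do not depend on how the libraries are scaled. They were chosen after the values had been seen and are given without a test or a background over other genes. The summed NAC019 level was 1.12, 1.15 and 1.02 times the summed PBF level in the IE replicates, and 0.852, 0.869 and 0.671 times in the RE replicates. In FPKM, NAC019 was thus above PBF in all 3 IE libraries and below it in all 3 RE libraries, IE replicate 2 included. This order rests on the gene lengths, at 642 to 678 bases for the NAC019 copies and 1017 to 1029 for the PBF copies. Counted in fragments and not per length, the NAC019 copies together were below the PBF copies in every library. Relative to the SPA sum, the NAC019 sum was 5.64, 4.60 and 7.45 times as high in IE and 4.12, 2.44 and 2.11 times as high in RE, again without overlap. The PBF sum was 5.03 and 7.28 times the SPA sum in IE replicates 1 and 3 and 2.81 to 4.84 times in the RE libraries. Here the groups overlapped, with IE replicate 2 inside the RE range.

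The contribution of the copies was uneven within SPA and NAC019 and more even within PBF. SPA-A supplied 84.0 ± 1.10% of the SPA sum in IE and 77.1 ± 2.17% in RE, and NAC019-B supplied 88.5 ± 3.08% of the NAC019 sum in IE and 77.2 ± 6.06% in RE (SD, n = 3 each). The PBF-D, PBF-A and PBF-B copies supplied 44.5 ± 3.08%, 32.6 ± 3.81% and 22.9 ± 0.827% of the PBF sum in IE and 45.0 ± 1.55%, 28.8 ± 0.799% and 26.1 ± 1.05% in RE (SD, n = 3 each). The same copy was thus the leading one of its triad in both regions.

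Of these 9 shares, 5 showed no overlap between IE and RE. The shares of a triad add up to 100%, so they are not independent of each other. Without a background over other triads, this count is a description and cannot show whether it is unusual. The SPA-B share was 11.8%, 11.2% and 10.1% in the IE replicates and 16.4%, 15.6% and 17.0% in the RE replicates. The gap between the groups was wider than the spread within either, and the SPA-A share moved the opposite way, with 82.9% to 85.1% in IE against 74.6% to 78.6% in RE. SPA-A was 7.16, 7.61 and 8.19 times as high as SPA-B in IE, and 4.81, 5.01 and 4.39 times in RE. For the former, the 95% intervals from counting error alone ran from 5.48 at the lowest to 11.3 at the highest, and for the latter from 3.69 to 6.14.

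The gene lengths behind the FPKM values differ within the SPA triad, at 1101 bases for SPA-A, 1616 for SPA-B and 1573 for SPA-D. They are alike within the other triads (1017, 1017 and 1029 bases for PBF-A, PBF-B and PBF-D, and 645, 642 and 678 bases for NAC019-A, NAC019-B and NAC019-D). A comparison of level between SPA copies, or between triads, therefore rests on these gene models. Counted in fragments and not per length, the SPA-B share was 16.1%, 15.3% and 13.8% in IE and 21.9%, 20.8% and 22.4% in RE, and the groups again did not overlap.

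For NAC019, the A copy supplied 10.4%, 14.5% and 7.83% of the sum in the IE replicates and 14.8%, 24.4% and 26.0% in the RE replicates. IE replicate 2 and RE replicate 1 were nearly equal, and the other IE libraries were well below the other RE libraries. The B copy mirrored this, with 88.9%, 85.3% and 91.4% in IE and 84.0%, 75.3% and 72.3% in RE. The PBF-B share was 23.3%, 23.5% and 22.0% in IE and 26.4%, 27.0% and 25.0% in RE, a difference of -3.22 percentage points. It was lower in every IE library, although the level of PBF-B itself did not separate the regions. No background over other triads was computed, because no table at hand names the homoeologs of other genes.

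**Figure D4:**
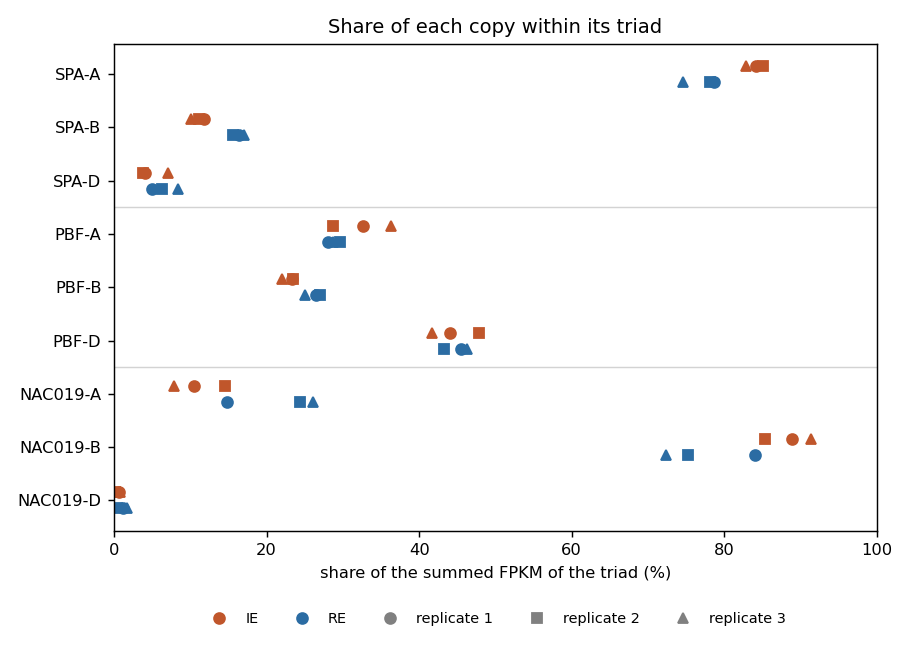
Share of the A, B and D copies in the summed FPKM of their triad, in percent, for each IE and RE library, with symbols for the replicate. The IE and RE points do not overlap for SPA-A, SPA-B, PBF-B, NAC019-A and NAC019-B.

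The study names 9 further genes that bear on storage protein, as gliadin, globulin or transcription factor genes, and it chose them on libraries of this experiment, so their direction is not independent evidence. None passed the adjusted p (limma adjusted p from 0.359 to 0.920). An unadjusted p of at most 0.05 was reached by 5 higher and 1 lower in IE (2.91% and 7.13% of all genes). The median log2 fold change of the 9 was 0.82 against -0.12 over all genes. The study called DEGs with another tool, at a p of at most 0.05 and a 2-fold change, so its calls are not like these. It also silenced TraesCS7B01G391800 and TraesCS2B01G217500 and reported more storage protein in the grain. The gliadin gene TraesCSU01G153800, a storage protein gene of the class that SPA and PBF regulate, was at 44.7, 31.9 and 50.4 FPKM in IE and at 21.1, 24.4 and 25.5 FPKM in RE. Every IE library was above every RE library (log2 fold change 0.82, standard error 0.23, limma adjusted p = 0.363), and IE replicate 2 was again the lowest of IE. The globulin genes, which encode storage proteins outside the gluten, had the opposite sign. TraesCS4D01G171800 was at 160, 403 and 186 FPKM in IE and at 356, 372 and 547 FPKM in RE, and IE replicate 2 was there among the RE libraries (log2 fold change -0.87, limma adjusted p = 0.509). TraesCS7D01G351300 did not separate the regions, at 0.663 to 6.22 FPKM in IE and 2.01 to 6.63 FPKM in RE.

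The bZIP genes among them had the opposite sign of SPA, which belongs to the same family. TraesCS6D01G312800 was at 17.1, 7.85 and 15.3 FPKM in IE and at 7.83, 5.55 and 7.98 FPKM in RE (log2 fold change 0.85, limma adjusted p = 0.457), with IE replicate 2 inside the RE range. TraesCS7B01G391800 and TraesCS7D01G475100 had IE values above all RE values, and their log2 fold changes were 1.72 (limma adjusted p = 0.359) and 1.90 (limma adjusted p = 0.363). The difference between these genes and SPA was not tested. Of the rest, the GRAS gene TraesCS2B01G217500 was higher and the transcription factor gene TraesCS7A01G214700 lower in every IE library (log2 fold changes 1.93 and -1.99), and TraesCS5A01G101200 had a log2 fold change of -0.08.

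Over the 6 libraries, the Pearson's r of a copy with the sum of its triad, of which it is a part, was 0.989, 0.916 and 0.904 for SPA-A, SPA-B and SPA-D, and 0.988, 0.951 and 0.990 for PBF-A, PBF-B and PBF-D. For NAC019-B, which makes up most of its sum, it was 0.992, while NAC019-A had an r of -0.510 and NAC019-D of 0.376. Outside the set, the genes most like the SPA sum were TraesCS5B01G386700 (r = 0.999), a newly assembled gene without a reference identifier (0.998) and TraesCS3A01G369200 (0.993). Those most like the PBF sum were TraesCS2D01G198100 (0.994), TraesCS1B01G313700 (0.987) and TraesCS7B01G145400 (0.986), and those most like the NAC019 sum were another newly assembled gene (0.998), TraesCS1A01G349900 (0.996) and TraesCS6B01G413100 (0.994). Some of these genes were close to the filter of 0.5 FPKM. The means were 0.628 FPKM for TraesCS5B01G386700, 0.622 for TraesCS1A01G349900 and 0.678 for the newly assembled gene most like the NAC019 sum. The others had means from 1.63 to 10.0 FPKM. No function is given for these genes in the sources used here. Of the 51821 genes compared, 137, 84 and 191 had an r of at least 0.95 with the SPA, PBF and NAC019 sums. These values are descriptions over 6 libraries, and the genes named were picked as the highest of those compared.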

How the data were processed

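After read filtering with fastp and mapping to Chinese Spring with HISAT2, the authors deposited an FPKM value for each gene in each library. The counting tool and its use of strand are not given in the sources used here. FPKM does not remove a shift in composition. Whole fragments, gene lengths and library totals were recovered from the steps of the FPKM values (within 0.01 of a whole number) and used for depth.

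The regions were tested against each other on log2(FPKM + 0.1) in limma (lmFit and a trended eBayes, version 3.58.1, R 4.3.3) without a replicate block, for all genes averaging 0.5 FPKM or more, and p-values were adjusted over these genes after Benjamini and Hochberg. This scale understates changes of weakly expressed genes. Triad sums were compared by two-sided exact permutation tests on log2(sum + 0.1), and shares and ratios were described only. The methods state biological replicates for RNA, without saying what separates them, and p-values measure the spread between these libraries. They also describe 3 field replicates per nitrogen treatment and the division of each grain section into both regions. Whether libraries with the same number share a plot or grains is not stated. Recovery, shares and figures were made in Python 3.11.15 (matplotlib 3.10.9, scipy 1.17.1, pandas 2.3.3, numpy 2.4.6).

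The genes named are the 9 regulators, 9 genes the paper names and the 3 genes most like each triad sum. Members and lists were chosen with earlier results of these data known. Alternatives changed the pseudocount, filter, scaling, variance trend, kind of p-value, replicate block, test or form of the fold change, or left out a library. The share of fragments was added after seeing the data. None of the identifiers matched the reference table at hand (0 of 127196), so no sequence is shown.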

Additional observations from a re-analysis of the deposited data

How the results depend on the processing

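The number of DEGs was 0 over all genes and among the 9 regulators under the 15 alternative fits, voom on recovered fragments included. The smallest limma adjusted p of a fit ran from 0.0566, without IE replicate 2, to 0.628, without RE replicate 1. With the unadjusted p and a 2-fold change, 2980 genes (5.75%) passed and 0 regulators. Over the alternatives 0 to 2 regulators passed, against 2.77% to 10.1% of all genes. With each library left out, the sums gave -0.66 to -0.29 for SPA, -0.074 to 0.46 for PBF, turning without IE replicate 3, and 0.45 to 0.90 for NAC019. The sign of PBF-B turned with median ratios (0.10), the ratio of group means (0.033), without IE replicate 2 (0.25) and without RE replicate 3 (0.0074), with a range of -0.23 to 0.25 over libraries left out. That of PBF-D turned without IE replicate 3 (-0.046, range up to 0.39), that of NAC019-D without IE replicate 2 (0.49), RE replicate 1 (0.019) or RE replicate 3 (0.12, range down to -0.78), and that of TraesCS5A01G101200 with median ratios (0.039) and without IE replicate 3 (0.043, range down to -0.18). The cause was not tested. SPA-A, SPA-B, SPA-D, PBF-A, NAC019-A and NAC019-B kept their sign under every alternative run. Regulators at an unadjusted p of at most 0.05 numbered 1 to 4 with a library left out, against 5.49% to 18.1% of all genes, and the 4 came without RE replicate 1 (7.81% of all genes). Those without overlap numbered 1 with median ratios (15.5% of all genes) and 2 to 5 with a library left out, where 21.5% to 36.4% of all genes showed none. The 5 came without IE replicate 2 (36.4%) and without RE replicate 1 (28.2%). Deviations from the group mean had correlations of 0.111, 0.059 and -0.203 between libraries with the same replicate number. Between libraries with different numbers they ran from -0.243 to 0.255. These values cannot show whether same-numbered libraries share grains, and the labels state no pairs, so the main fit used none. With the replicate block, 0 genes were called, and 1239 higher and 2118 lower genes passed the unadjusted p and 2-fold change. NAC019-D, at 2 to 15 fragments per library, limits what depth can show.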
